A study of Rattus norvegicus with 12 samples.

Results

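Hedgehog signalling was described through 9 genes, the transcription factors Gli1, Gli2 and Gli3, the receptor Ptch1, the transducer Smo, the ligand-binding protein Hhip and the co-receptors Gas1, Boc and Cdon, in vascular endothelial cells (ECs) of the ductus arteriosus (DA) and the aorta. A gene was taken where a probe set of the array carried its symbol and no other, and the probe set with the highest mean over the 12 arrays stood for it. Gli1, Gli2, Gli3, Smo and Cdon, 5 of the 9, had such a probe set, with 1 each, among 14503 genes named in this way in the whole table. Ptch1, Hhip, Gas1 and Boc had none and were not analysed here. The 5 genes named by a probe set all passed the filter on low signals.

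The ECs came from Wistar rats of 2 stages, fetuses at day 21 of gestation (F) and neonates 30 minutes after delivery by cesarean section (N). In each stage they were taken from the DA and from the aorta, which gave the groups aorta F, DA F, aorta N and DA N with 3 Rat Gene 1.0 ST arrays each. The tissue of many animals was pooled and dispersed with enzymes, and CD31+/CD45- cells were collected by FACS. No animal carried an altered gene or received a drug as far as the labels say. Each array therefore measured a pool of litters, and DA and aortic pools of a stage may share litters. The p-values measure the spread between pools. In the main fit, which ignores the replicate numbers of the labels, that spread includes shifts shared by arrays of the same number.

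In Hedgehog signalling a secreted ligand binds the receptor Ptch1, which otherwise holds the membrane protein Smo inactive. Cdon, Boc and Gas1 are co-receptors that present the ligand, and Hhip binds and sequesters it. Released Smo acts at the primary cilium on the Gli factors, of which Gli2 is chiefly an activator, Gli3 chiefly a repressor, and Gli1 both an activator and a target of the pathway, as Ptch1 and Hhip also are. The pathway patterns many embryonic tissues, and in blood vessels it is known for roles in vessel growth and in signalling between endothelium and surrounding mesenchyme.

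Promoter sequences of the members that differed between the vessels are given so that the 250 bases before their starts can be read beside the values. They come from RefSeq on the rat build GRCr8, which held such a window for 7 of the 9 members and none for Gli1 and Gas1. CpG dinucleotides are in capitals in the first pair of sequences, which stop at the base before the start and hold no transcribed base of that gene model. The window of Gli2 lies at chr13:32716419-32716668 on the minus strand and that of Smo at chr4:59310834-59311083 on the plus strand.
Gli2: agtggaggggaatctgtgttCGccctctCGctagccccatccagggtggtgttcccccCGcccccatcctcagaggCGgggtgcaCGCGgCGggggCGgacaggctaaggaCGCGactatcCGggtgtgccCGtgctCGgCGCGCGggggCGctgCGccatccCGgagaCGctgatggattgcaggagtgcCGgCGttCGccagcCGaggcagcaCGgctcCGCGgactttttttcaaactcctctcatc
Smo: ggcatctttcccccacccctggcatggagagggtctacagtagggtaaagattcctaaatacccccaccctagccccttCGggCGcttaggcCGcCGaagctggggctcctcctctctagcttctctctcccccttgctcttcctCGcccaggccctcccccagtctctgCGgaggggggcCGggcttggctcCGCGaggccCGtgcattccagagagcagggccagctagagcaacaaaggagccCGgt
The Gli2 window had a GC content of 68.4% and 27 CpG dinucleotides, more than 92.3% of the 33469 promoters of the table, whose median was 5. The Smo window had 64.8% GC and 11 CpG dinucleotides, more than 66.4% of the promoters. The Cdon window, in contrast, had 40.4% GC and 1 CpG dinucleotide.

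The motif of the Gli factors, GACCACCCA, was searched on both strands of these windows. It lay in 1 of the 7 windows, that of Ptch1, and in 113 of the 33469 promoters (0.338%). The stretch around it, at chr17:1555379-1555427 on the plus strand, is shown because it is the one match, with the motif in capitals in its reverse complement.
Ptch1: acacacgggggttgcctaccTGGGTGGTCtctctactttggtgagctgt
A match is a run of letters and not a measured binding site. The windows of Gli2, Gli3, Smo, Hhip, Boc and Cdon did not hold these letters.

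The deposited values are log2 signals, and a difference of 1 on that scale is 2-fold. Of the 18690 probe sets that passed the filter, the DA against aorta comparison was called (limma, adjusted p under 0.05 after the Benjamini-Hochberg method over all 18690) for 3.77% in F (1.49% higher and 2.28% lower in the DA), for 3.14% in N (1.26% higher and 1.87% lower) and for 8.12% over both stages (3.19% higher and 4.93% lower), where the mean of the F and N differences was tested. Of the 5 members, 1 was called in each stage, Gli2, and 2 were called over both stages, Gli2 and Smo. The fitted differences of the 5 members, DA minus aorta, were all above 0, with a median log2 fold change of 0.22 in F and 0.17 in N and of 0.20 for both stages together, against a median of 0 over all probe sets in each of the 3 comparisons. The members were chosen with these results known, so that their shared direction is only a description.

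Smo, the membrane protein that carries the signal into the cell, was higher in the DA over both stages, by less than Gli2. Its log2 signals were 8.53, 8.78 and 8.79 in aorta F, 9.04, 8.93 and 9.08 in DA F, 8.42, 8.58 and 8.81 in aorta N and 8.90, 9.14 and 9.02 in DA N (replicates 1 to 3 in each group). The group means were 8.70 ± 0.15, 9.02 ± 0.08, 8.60 ± 0.20 and 9.02 ± 0.12 (SD, n = 3). Every DA array lay above every aortic array, with 8.81 the highest aortic value and 8.90 the lowest DA value, a separation found in 2.91% of all probe sets, with 7.73% in F and 6.98% in N.

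Over both stages Smo was 1.29-fold higher in the DA, a log2 fold change of 0.37 (standard error 0.09, 95% interval 0.16 to 0.57, limma adjusted p = 0.0296). It ranked 723 of 18690 from the highest. In F alone the log2 fold change was 0.32 (0.03 to 0.60, adjusted p = 0.308) and in N alone 0.42 (0.13 to 0.71, adjusted p = 0.159), and neither was called. When the replicate number was fitted as a block, the N difference was called as well (adjusted p = 0.0306). The call over both stages was lost when any of 8 arrays was left out. Without aorta F replicate 1 the adjusted p was 0.0724, and without aorta F replicate 2 it was 0.0509. Leaving out DA F replicate 1 gave 0.0661 and DA F replicate 3 gave 0.0703. Among the N arrays the values were 0.0842 without aorta N replicate 1, 0.0723 without aorta N replicate 2, 0.0924 without DA N replicate 2 and 0.0551 without DA N replicate 3. Without any filter on low signals the adjusted p was 0.0502. The log2 fold change stayed between 0.32 and 0.42 over the 18 other limma fits, 9 of which called it.

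Cdon, an immunoglobulin-type co-receptor for Hedgehog ligands, was not called in any comparison. Its log2 signals were 9.07, 8.98 and 9.02 in aorta F, 9.05, 9.26 and 9.43 in DA F, 9.15, 8.97 and 9.21 in aorta N and 9.29, 9.29 and 9.27 in DA N. The vessels overlapped in F and did not overlap in N, where the lowest DA array of 9.27 was above the highest aortic array of 9.21, and 6.98% of all probe sets were separated in that direction in N. Over both stages the log2 fold change was 0.20 (95% interval 0.01 to 0.38, limma adjusted p = 0.243). It was 0.22 (-0.04 to 0.49) in F and 0.17 (-0.09 to 0.44) in N.

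Gli2, the main activator among the Gli factors, was more than 2-fold higher in ECs of the DA than of the aorta in each stage. In the aorta its log2 signals were 5.63, 6.07 and 5.85 in F and 5.98, 5.84 and 5.97 in N. In the DA they were 7.25, 6.83 and 7.05 in F and 6.75, 6.98 and 7.29 in N. The lowest DA array, 6.75, was above the highest aortic array, 6.07, a separation found in 2.91% of all probe sets. The group means were 5.85 ± 0.22 in aorta F, 7.04 ± 0.21 in DA F, 5.93 ± 0.07 in aorta N and 7.01 ± 0.27 in DA N (SD, n = 3).

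The Gli2 difference was 2.29-fold in F, a log2 fold change of 1.19 (standard error 0.17, 95% interval 0.83 to 1.55, limma adjusted p = 0.00115). In N it was 2.11-fold, a log2 fold change of 1.08 (standard error 0.17, 0.72 to 1.44, adjusted p = 0.00277). Over both stages it was 2.2-fold, which on the log2 scale is 1.13 (standard error 0.12, 0.88 to 1.39, adjusted p = 4.91e-05), and ranked 82 of 18690 from the highest. Between arrays of the same replicate number, DA minus aorta was 1.62, 0.76 and 1.19 in F and 0.77, 1.13 and 1.33 in N, so the difference had 1 sign in all 6 pairs. Gli2 was called in each of the 18 other limma fits, in F with an adjusted p of 0.000376 to 0.00787, in N with 0.000932 to 0.0183 and over both stages with 1.74e-05 to 0.00032. The methods' t-test called it in each stage at an unadjusted p under 0.05 with at least a 2-fold difference, and after Benjamini-Hochberg adjustment in neither F nor N but over both stages.

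Gli3, the Gli factor that acts chiefly as a repressor, had overlapping signals in the 2 vessels. They were 8.09, 8.30 and 8.35 in aorta F, 8.30, 8.21 and 8.58 in DA F, 8.18, 8.02 and 8.51 in aorta N and 8.24, 8.26 and 8.59 in DA N. The log2 fold change was 0.12 in F (95% interval -0.23 to 0.47), 0.13 in N (-0.22 to 0.48) and 0.12 over both stages (-0.12 to 0.37, limma adjusted p = 0.695). A difference of the size found for Gli2 lay outside these intervals.

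Gli1, whose transcription is a common readout of the active pathway, was not called either. Its log2 signals were 5.08, 5.59 and 5.43 in aorta F, 5.17, 5.67 and 5.78 in DA F, 4.97, 5.26 and 5.65 in aorta N and 5.19, 5.35 and 5.55 in DA N. The ranges of all 4 groups overlapped. The log2 fold change was 0.17 in F (95% interval -0.28 to 0.63), 0.07 in N (-0.38 to 0.53) and 0.12 over both stages (-0.20 to 0.44, limma adjusted p = 0.79). On 3 arrays, replicate 1 of DA F, aorta N and DA N, Gli1 lay below the lys spike of the same array. The spike is a control RNA added at a low amount, and its mean of 4.44 over the arrays set the filter. On replicate 1 of DA F and DA N it was 6.17 and 5.78, above the array medians of 5.67 and 5.65, so lying below it there marks no floor. On replicate 1 of aorta N the spike was 5.18, below the array median of 5.67, and Gli1 was 4.97. The mean of Gli1 over the 12 arrays was 5.39. The other 4 members were above the spike on each of the 12 arrays. In the aorta Gli2 was also low, at 5.63 to 6.07, near the array medians of 5.63 to 5.76 and overlapping the range of Gli1.

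Gli1 and Gli3 also varied with the replicate number. For each of them replicate 1 lay below its group's mean in 4 of 4 groups, by 0.29 for Gli1 and 0.10 for Gli3 on average, and replicate 3 lay above it in 4 of 4, by 0.21 and 0.20. For Gli2 and Smo replicate 3 was below the group mean in 0 of 4 groups, with an average deviation of 0.08 and 0.09. For Gli2 this came mostly from DA N, where replicate 3 was 7.29 against a mean of 7.01. In aorta F it was 5.85 against a mean of 5.85. The lys spike itself was 4.53 to 6.17 in the replicate 1 arrays, 4.16 to 4.78 in replicate 2 and 3.41 to 3.53 in replicate 3. Its part in these shifts was not tested.

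**Figure D1:**
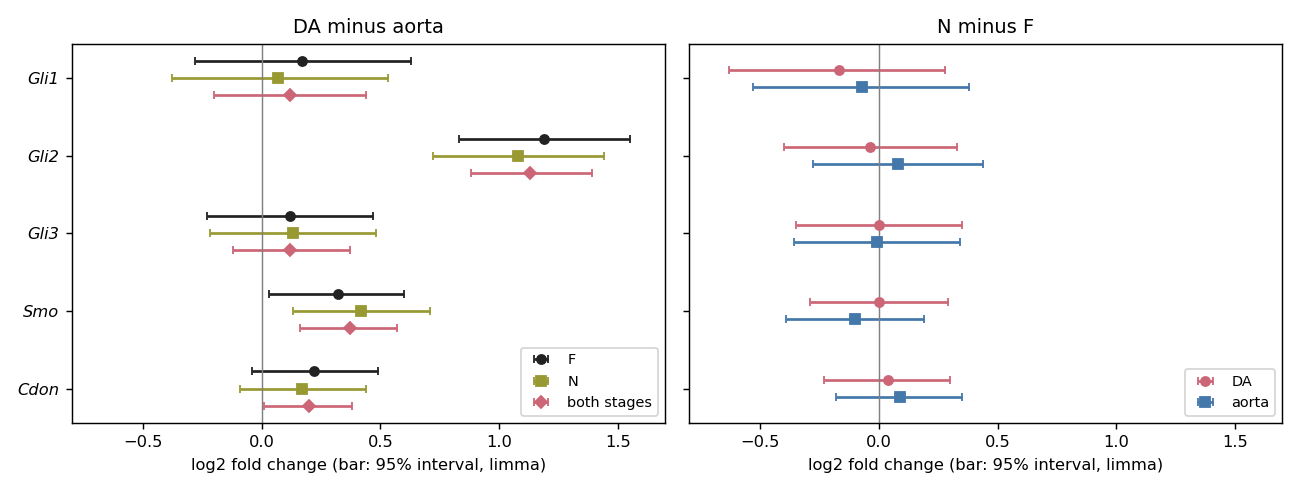
Log2 fold changes of the 5 measured Hedgehog genes from limma, with bars for 95% intervals. The left panel gives DA minus aorta for F, for N and for the mean of both stages, where Gli2 at 1.19, 1.08 and 1.13 is the member farthest from 0, and the right panel gives N minus F in each vessel, where each interval holds 0.

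Birth and the first minutes of breathing came between the stages, and no member was called between N and F in either vessel. Of all probe sets tested, limma called 0.00535% (1) for the DA and 0 for the aorta, with 375 and 257 at an unadjusted p under 0.05. For Gli2 N minus F was -0.04 in the DA (95% interval -0.40 to 0.33) and 0.08 in the aorta (-0.28 to 0.44) on the log2 scale. For Smo it was 0.00 (-0.29 to 0.29) and -0.10 (-0.39 to 0.19). Over the 5 members the log2 fold changes ran from -0.17, for Gli1, to 0.04 in the DA and from -0.10 to 0.09 in the aorta. The intervals give the changes compatible with 3 arrays per group and are not limits of detection.

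The vessel difference itself was compared between the stages by an interaction term. It was -0.12 for Gli2 (95% interval -0.63 to 0.40) and 0.10 for Smo (-0.31 to 0.51), with none of the 5 members and 0 of 18690 probe sets called by limma, where 174 had an unadjusted p under 0.05. The Gli2 interval gives the changes of its vessel difference compatible with these arrays and is not a limit of detection.

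The other genes of the pathway were counted over 5 lists of ligands and their release, other receptors and cell surface proteins, intracellular regulators, primary cilium genes and known targets outside the members. Of their 65 genes, 16 had no named probe set, 2 (Lrp2 and Gpc5) were below the filter and 47 were tested. In F 2 were higher in the DA and 0 lower, in N 0 were called, and over both stages 4 were higher and 1 lower, which is 5 of 47 against 8.12% of all probe sets. Under the replicate block the numbers called were 7, 4 and 11, against 1951, 1358 and 3327 probe sets in all. The median log2 fold change of the 47 genes over both stages was 0.02.

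**Figure D2:**
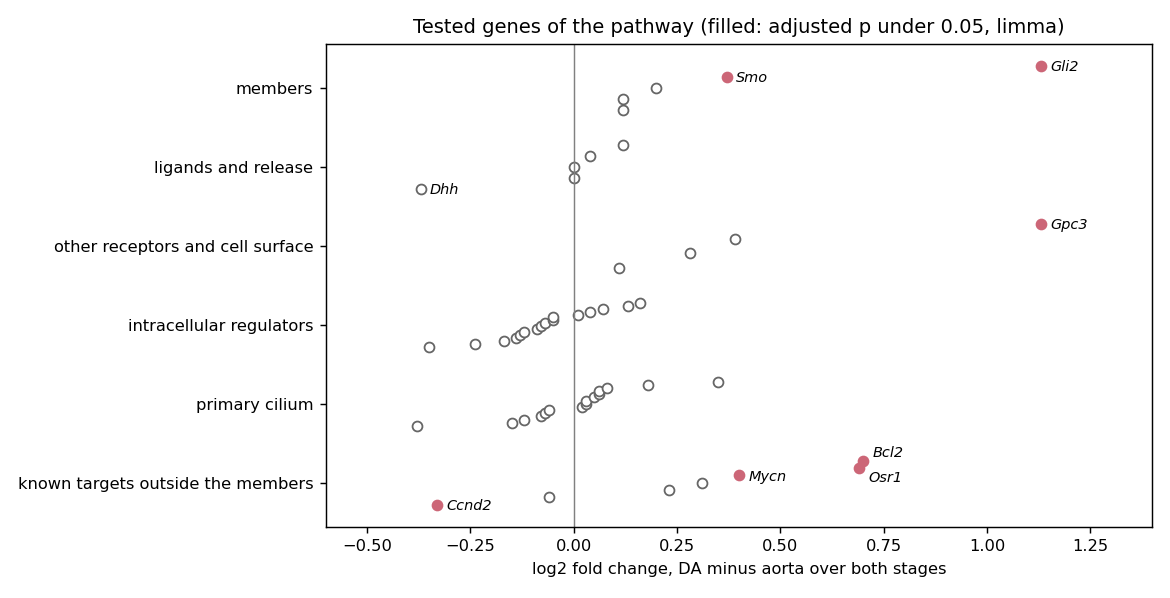
Log2 fold changes, DA minus aorta over both stages, of the 5 measured members and of the tested genes of the 5 other pathway lists, 1 circle per gene. Filled circles are called by limma. Gli2 and Gpc3, both at 1.13, stand apart from the others, and none of the intracellular regulators or primary cilium genes is called.

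Among the ligands, Dhh, the ligand known to be made by ECs and Schwann cells, had log2 signals of 9.96, 9.77 and 9.68 in aorta F, 9.50, 9.34 and 9.19 in DA F, 9.96, 9.78 and 9.68 in aorta N and 9.79, 9.30 and 9.46 in DA N. All DA arrays lay below all aortic arrays in F, as in 10.9% of probe sets, and overlapped with them in N. Its log2 fold change over both stages was -0.37 (95% interval -0.61 to -0.14), with an adjusted p of 0.0513 from limma, just outside the threshold. Under the replicate block the adjusted p was 0.00216 (0.00921 in F alone) and Dhh was called lower in the DA, as it also was without DA N replicate 1 (0.018), after quantile normalization (0.0306), with a variance trend (0.0341) and with the higher filter (0.0405). Of the 18 other limma fits these 5 called it over both stages and 13 did not, with an adjusted p of up to 0.145. In F 17 of the 18 did not call Dhh, and in N 18 did not. DA minus aorta was below 0 in all 6 same-number pairs, at -0.45, -0.43 and -0.49 in F and -0.18, -0.48 and -0.21 in N.

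Shh and Ihh, ligands better known from epithelia and from cartilage and gut, had low mean log2 signals of 5.06 and 5.60, where the filter was at 4.44. Shh was between 4.76 and 5.37 over the 12 arrays and Ihh between 5.26 and 5.98. Their log2 fold changes over both stages were 0.04 (95% interval -0.22 to 0.30) and 0.00 (-0.28 to 0.29). Shh was below the lys spike of its own array on 3 arrays and Ihh on 2. Of the 5 ligand and release genes tested, 0 were called over both stages, with a median log2 fold change of 0.00.

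Gpc3, a glypican of the cell surface that binds Hedgehog ligands and competes with the receptor for them, was the other receptor-side gene called. Its log2 signals were 6.84, 7.22 and 6.46 in aorta F and 8.18, 8.05 and 8.01 in DA F. In N they were 7.31, 7.36 and 6.42 in the aorta and 8.05, 8.40 and 7.71 in the DA. Every DA array exceeded every aortic array, as in 2.91% of all probe sets. The log2 fold change was 1.24 in F (standard error 0.26, limma adjusted p = 0.0175), 1.03 in N (adjusted p = 0.0585, and 0.00139 under the replicate block) and 1.13 over both stages (standard error 0.19, adjusted p = 0.00173). The call in F was lost without aorta F replicate 1 (adjusted p = 0.0515) or 3 (0.0862) and without DA F replicate 1 (0.0728), 2 (0.0611) or 3 (0.0548). The N difference was also called after quantile normalization (0.0347) and without DA N replicate 3 (0.0486). With the replicate block these were 3 of 18 other limma fits, and 15 did not call it, with an adjusted p of up to 0.279. Of the 4 genes tested in this list, 1 was called over both stages, against 8.12% of all probe sets, and the median log2 fold change was 0.33. Under the replicate block Gpc4, another glypican, was also called higher in N and over both stages, and Evc2, a cilium protein that binds Smo, over both stages.

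The intracellular regulators and the primary cilium genes gave no call in either stage or over both in the unpaired fit. Under the replicate block Ift122, a subunit of intraflagellar transport, was called lower in F, and Ift122, Grk2, a kinase of activated receptors, and Spopl, a relative of the ubiquitin ligase adaptor Spop, were called lower over both stages. The methods' t-test adjusted by Benjamini-Hochberg also called Grk2 over both stages. In the unpaired fit their log2 fold changes over both stages were -0.38 (limma adjusted p = 0.127), -0.24 (0.0823) and -0.35 (0.532). Sufu, the cytoplasmic inhibitor that binds the Gli factors, had a log2 fold change of -0.05 over both stages (95% interval -0.25 to 0.16, limma adjusted p = 0.897). Kif7, a cilium-tip kinesin of the pathway, had no named probe set. The 16 regulators tested ran from -0.35 to 0.16 over both stages with a median of -0.08, and the 15 cilium genes tested from -0.38 to 0.35 with a median of 0.03.

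The list of known targets held 3 genes that were higher in the DA over both stages, 1 that was lower and 3 that were not called. Of all probe sets 3.19% were called higher and 4.93% lower. Each of these targets is also controlled by other pathways. Osr1, a zinc finger factor of heart and kidney mesoderm, was 4.69, 5.09 and 5.39 in aorta F, 5.70, 5.92 and 6.43 in DA F, 5.17, 5.23 and 5.47 in aorta N and 5.15, 5.73 and 6.26 in DA N on the log2 scale. The vessels were separated in F, as in 7.73% of all probe sets, and overlapped in N. The log2 fold change over both stages was 0.69 (standard error 0.19, limma adjusted p = 0.0453). In F alone it was 0.96 (adjusted p = 0.0844, and 0.000524 under the replicate block). Osr1 was below the lys spike on the same 3 arrays as Gli1, and it was called in 8 of 18 other limma fits. The call was lost without a filter (adjusted p = 0.059), without aorta F replicate 1 (0.0998) or 2 (0.0895), without DA F replicate 2 (0.0775) or 3 (0.111), without any aorta N array (0.102, 0.103 and 0.0567 for replicates 1 to 3) and without DA N replicate 2 (0.102) or 3 (0.0862).

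Bcl2, an inhibitor of apoptosis, was 8.12, 8.49 and 8.72 in aorta F, 9.22, 8.88 and 9.53 in DA F, 8.06, 8.06 and 8.72 in aorta N and 8.62, 8.93 and 9.22 in DA N. The vessels were separated in F, as in 7.73% of all probe sets, and in N 1 DA array fell below 1 aortic array. The log2 fold change over both stages was 0.70 (standard error 0.17, limma adjusted p = 0.0201), called in 14 of 18 other limma fits. It fell outside the threshold without DA F replicate 3 (0.0543), aorta N replicate 1 (0.0541) or 2 (0.0597) or DA N replicate 2 (0.0519). It was not called in F (0.77, adjusted p = 0.119) or in N (0.64, adjusted p = 0.269), and under the replicate block it was called in each (adjusted p = 0.0027 and 0.0101).

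Mycn, a Myc-family factor of proliferating progenitors, was 5.88, 6.18 and 5.84 in aorta F, 6.55, 6.55 and 6.44 in DA F, 6.09, 6.01 and 6.25 in aorta N and 6.27, 6.38 and 6.49 in DA N. Every DA array was above every aortic array, as in 2.91% of all probe sets, with 6.25 the highest aortic value and 6.27 the lowest DA value. The log2 fold change was 0.54 in F (limma adjusted p = 0.0316), 0.26 in N (adjusted p = 0.506) and 0.40 over both stages (standard error 0.09, adjusted p = 0.0132). The call in F was lost in 8 of 18 other limma fits, and the call over both stages in 0 of 18. Those 8 were the fit without a filter (0.0561) and the fits without aorta F replicate 1 (0.119) or 3 (0.132), DA F replicate 1 (0.105), 2 (0.112) or 3 (0.0645), aorta N replicate 1 (0.0504) or DA N replicate 2 (0.0572).

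Ccnd2, a D-type cyclin of the G1 phase, went the other way. It was 10.90, 10.74 and 10.68 in aorta F, 10.59, 10.43 and 10.44 in DA F, 10.95, 10.82 and 10.85 in aorta N and 10.56, 10.47 and 10.44 in DA N. Every DA array was below every aortic array, as in 4.07% of probe sets, and the log2 fold change over both stages was -0.33 (standard error 0.08, limma adjusted p = 0.0169). The call was lost without aorta N replicate 1 (adjusted p = 0.053) or DA N replicate 2 (0.0528). Ccnd2 was not called in F (-0.29, adjusted p = 0.241) or in N (-0.38, adjusted p = 0.103), and under the replicate block it was called in each (0.0448 and 0.0134). Ccnd1, another D-type cyclin of the list, had a log2 fold change of 0.31 over both stages and was not called in the unpaired fit (limma adjusted p = 0.238).

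**Figure D3:**
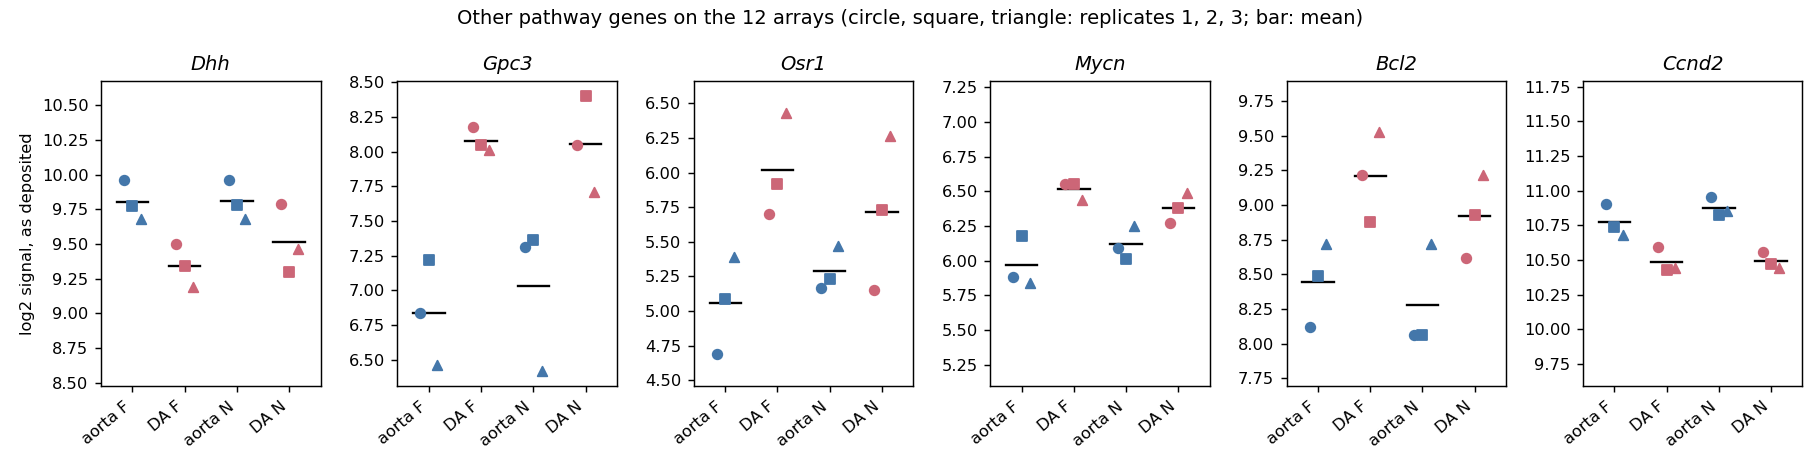
Log2 signals of Dhh and of the 5 called genes of the other pathway lists on the 12 arrays, by group, with symbols for replicate numbers and bars for group means. Dhh and Ccnd2 have lower means in the DA and the other 4 genes higher means, and Osr1, Bcl2 and Dhh overlap between the vessels in N.

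The sorted cells were checked against marker lists. Counts of called markers, here and below, are over both stages, where 3.19% of all probe sets were called higher and 4.93% lower. The brightest of the 13 endothelial markers tested were Pecam1 (CD31, used in the sort), Eng and Tie1, with mean log2 signals of 12.10, 11.95 and 11.84. Of the 13 markers 0 were called higher in the DA over both stages and 2 lower. These were Flt1 (-0.55, limma adjusted p = 0.000815) and Cldn5 (-0.62, adjusted p = 0.00209). The log2 fold change was below 0 for 10 endothelial markers and above 0 for 3. Their summed linear signal was 25300 to 27500 in aorta F and 24200 to 25000 in DA F. In N it was 26500 to 27500 in the aorta and 24300 to 25900 in the DA. Of 10 smooth muscle markers tested 4 were higher and 2 lower. The brightest was Acta2, the smooth muscle actin, higher in the DA by 0.58 on the log2 scale (limma adjusted p = 0.00355), while Smtn differed by 0.00 (adjusted p = 0.997) and Myocd, the coactivator of the smooth muscle program, was lower, at -0.59 (adjusted p = 0.00477). The other called markers, named after their values were seen, were Actg2, the enteric smooth muscle actin, higher by 1.52 (adjusted p = 2.41e-05), Tagln, an actin-binding protein, by 1.03 (adjusted p = 0.0016) and Des, the muscle intermediate filament, by 0.73 (adjusted p = 0.000312), and Mylk, the myosin light chain kinase, at -0.45 (adjusted p = 0.00659). The differences of Actg2 and Tagln were near that of Gli2 in size. The summed signal of the list, on the linear scale, was 2360 to 2740 in aorta F, 3370 to 3540 in DA F, 2520 to 2790 in aorta N and 3460 to 4420 in DA N, so it was higher in the DA arrays, as Gli2 and Smo were. The mean log2 signal of the muscle list was 7.43, 7.38 and 7.24 in DA F, where Gli2 was 7.25, 6.83 and 7.05, and 7.45, 7.68 and 7.37 in DA N, where Gli2 was 6.75, 6.98 and 7.29. No level in pure smooth muscle was measured, and the part of other cells in the Gli2 and Smo differences was not tested. In such pools a different share of cells and a different amount of RNA per cell cannot be told apart.

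**Figure D4:**
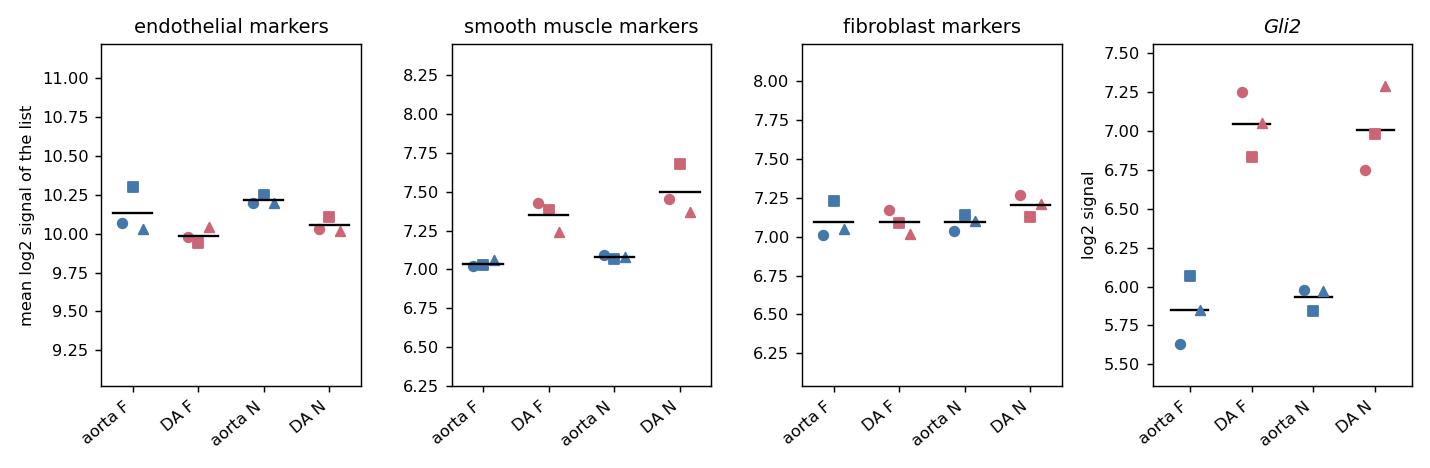
Mean log2 signals of the endothelial, smooth muscle and fibroblast marker lists on the 12 arrays, beside the log2 signal of Gli2, with symbols for replicate numbers and bars for group means. The smooth muscle list is at 7.02 to 7.09 in the aorta and 7.24 to 7.68 in the DA, and the fibroblast list overlaps between the vessels.

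The summed linear signal of the fibroblast markers overlapped between the vessels. It was 8720 to 9870 in aorta F and 7690 to 9250 in DA F. In N it was 8830 to 9970 in the aorta and 8740 to 9890 in the DA. Of 10 markers tested 1 was higher and 2 lower, and 2 more, Lum and Fap, were below the filter. Single markers were separated in opposite directions. For Col1a1 and Fbln1 (-0.50, limma adjusted p = 0.000869) every DA array lay below every aortic array, as in 4.07% of probe sets. For Col1a2 and Dpt every DA array lay above, as in 2.91%. The brightest were Postn (log2 fold change 0.15, limma adjusted p = 0.635), Col1a1 (-0.48, adjusted p = 0.00453) and Col1a2 (0.30, adjusted p = 0.0287). Among leukocyte markers 5 of 9 were below the filter, Ptprc (CD45, used in the sort) among them, and of the 4 tested 1 was lower in the DA. The brightest were Cd68 (-0.31, adjusted p = 0.207), Cd14 (-0.57, adjusted p = 0.0224) and Fcer1g (-0.12, adjusted p = 0.74). Their summed signals were 492 to 526 in aorta F, 377 to 437 in DA F, 459 to 593 in aorta N and 376 to 469 in DA N.

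Of the mesothelial markers 1 of 4 tested was higher in the DA, with Msln at 0.56 (limma adjusted p = 0.00244), Krt19 at -0.35 (adjusted p = 0.097) and Krt8 at 0.05 (adjusted p = 0.906) on the log2 scale over both stages. Of the Schwann cell and glial markers 1 of 3 tested was higher, with Sox10 at -0.14 (adjusted p = 0.649), Mbp at 0.52 (adjusted p = 0.0244) and Erbb3 at -0.02 (adjusted p = 0.964). Of the erythroid markers 1 of 5 tested was called, Epb42, a red cell membrane protein, higher by 0.62 (adjusted p = 0.0164) but below the lys spike on 4 arrays. The brighter globin genes Hbb and Hbb-b1 were at -0.45 (adjusted p = 0.423) and -0.26 (adjusted p = 0.712) over both stages, with Hbb at 0.27 in F and -1.17 in N. The summed erythroid signal was 456 to 632 in aorta F, 443 to 1200 in DA F, 444 to 532 in aorta N and 269 to 319 in DA N. The part of these cells in the values of the Hedgehog genes was not tested.

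The genes whose pattern over the 12 arrays was most like that of Gli2 and Smo were sought among 11898 tested genes of a single symbol, by the root mean square difference of the log2 signals after each gene was centred on its own mean. For Gli2 they were Mtss1 (0.134), Mdfi (0.136) and Mast2 (0.143), against a median of 0.63 over all genes compared. Mtss1, a membrane-bending protein that binds actin, was higher in the DA by 1.18 in F (limma adjusted p = 0.00346) and 1.23 in N (adjusted p = 0.00314). Mdfi, an inhibitor of myogenic factors, was higher by 1.22 (adjusted p = 0.000379) and 1.07 (adjusted p = 0.00117), and Mast2, a microtubule-associated kinase, by 1.01 (adjusted p = 0.00557) and 0.95 (adjusted p = 0.0105).

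For Smo the likest genes were Sema5a (0.0801), Mmp24 (0.0887) and Slco3a1 (0.0898), against a median of 0.299. Sema5a, a transmembrane semaphorin, had log2 fold changes of 0.27 in F and 0.40 in N, Mmp24, a membrane-type matrix metalloproteinase, of 0.36 and 0.31, and Slco3a1, an organic anion transporter, of 0.38 and 0.30. None of these 3 was called in either stage. The measure is small for any gene with a like vessel difference and low scatter, and it is a description of these 12 arrays.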

How the data were processed

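ECs sorted by FACS were measured on 12 Rat Gene 1.0 ST arrays, 3 pools in each of 4 groups. The deposited values are log2 signals of 26468 probe sets, summarised and normalized by the authors (method not given in the sources used here), and array medians were 5.63 to 5.76. The number of arrays limits the precision. Gene symbols came from the platform's annotation, updated through RefSeq. Probe sets whose mean reached that of the lys spike were kept (18690, with 7778 left out). The methods also filter at this spike, by a rule they do not spell out, and left out more probe sets. The fit used limma 3.58.1 (R 4.3.3) and a mean for each group, with Benjamini-Hochberg adjustment over all of them, after the procedure was tested on simulated data. Arrays of the same replicate number deviated together over genes (r = 0.539 to 0.82 for number 1, 0.102 to 0.301 for 2 and 0.393 to 0.735 for 3, against -0.738 to 0.368 between numbers), so the numbers were taken to pair the arrays and also fitted as a replicate block. The sources used here do not say what they stand for.

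The members and all gene lists were chosen with earlier results of these data known. Genes named were the 9 members, every pathway gene called over both stages, Shh, Ihh, Dhh, Sufu and Kif7, the 3 brightest genes of each marker list and the 3 genes most like each called member. Lrp2, Gpc5, Lum, Fap and Ptprc were named as below the filter. Actg2, Tagln, Des, Mylk, Flt1, Cldn5, Fbln1, Dpt, Ccnd1, Gpc4, Evc2, Ift122, Grk2 and Spopl were named after their values were seen. The alternatives were the replicate block, the methods' t-test, no filter, a filter 1 log2 unit higher, quantile normalization, a variance trend, the mean of a gene's probe sets and leaving out each array. The t-test was run on the probe sets kept here. Over both stages it pooled the F and N arrays, which the methods do not describe.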

Additional observations from a re-analysis of the deposited data

How the results depend on the processing

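The direction of each called member difference was kept under every alternative. In F and N the number of members called moved to 0 when the methods' t-test was adjusted by Benjamini-Hochberg. In N it moved to 2 with the replicate block. Over both stages it moved to 1 without a filter. It also moved to 1 there under the pooled t-test with the methods' 2-fold rule and unadjusted threshold. Leaving out 1 array gave 1 to 2 members over both stages, and 1 in F and 1 in N each time. Of the other pathway genes, 2 were called in F, with 7 under the replicate block, 1 without a filter, 1 by the t-test at 2-fold, 0 by the t-test after adjustment and 0 to 3 when 1 array was left out. In N 0 were called, with 4 under the replicate block, 2 after quantile normalization, 1 with a variance trend, 1 by the t-test at 2-fold and 0 to 1 without 1 array. Over both stages 5 were called, with 11 under the replicate block, 1 by the t-test at 2-fold and 2 to 6 without 1 array. The low counts in F came without aorta F replicates 1 and 3 or any DA F array (0) and without aorta N replicate 1 or DA N replicate 2 (1), and those over both stages without DA F replicate 3 or aorta N replicate 2 (3) and aorta N replicate 1 or DA N replicate 2 (2). The replicate block changed no other call of a member. Why these counts move was not tested.

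Signs turned only in values that were not called. After quantile normalization Gli3 had an interaction of -0.05, and N minus F in the DA was -0.04 for Smo and -0.01 for Cdon. Without 1 array, N minus F in the DA ran from -0.06 to 0.13 for Cdon, -0.18 to 0.09 for Gli2, -0.12 to 0.11 for Gli3 and -0.06 to 0.06 for Smo, and in the aorta from -0.25 to 0.09 for Gli1, -0.03 to 0.19 for Gli2 and -0.15 to 0.10 for Gli3. The interaction ran from -0.15 to 0.04 for Cdon, -0.29 to 0.08 for Gli1, -0.26 to 0.01 for Gli2 and -0.10 to 0.15 for Gli3, and the difference of Gli1 in N from -0.09 to 0.25. The higher filter left out Gli1, and averaging probe sets could change no member, each having 1.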
